A study of Mus musculus with 11 samples.

Results

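The 10 genes described here encode the major apolipoproteins made by the liver and the protein that loads lipid onto them. They are Apoa1, Apoa2, Apoa4, Apoa5, Apob, Apoc1, Apoc2, Apoc3, Apoe and Mttp. They were chosen by name among the 54232 gene identifiers of the count tables, with earlier results of these data known. The samples were hepatocytes, purified from the livers of adult male C57BL/6 mice. Xbp1 LKO mice carry floxed Xbp1 alleles that a Cre recombinase under the albumin promoter deletes in hepatocytes, and Xbp1 fl/fl mice carry the floxed alleles and served as controls. Mice of each genotype ate chow, or a diet high in fat and sugar (HFS), over at most 6 weeks. There were 3 chow-fed Xbp1 fl/fl, 2 chow-fed Xbp1 LKO, 3 HFS-fed Xbp1 fl/fl and 3 HFS-fed Xbp1 LKO libraries. The HFS cohorts held 6 mice each, pooled into 3 libraries, so each HFS library averages 2 mice and a chow library does not average mice.

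Lipoproteins carry triglyceride and cholesterol through the blood in particles whose surface proteins are the apolipoproteins. Apob is the structural protein of very low density lipoprotein (VLDL), and the microsomal triglyceride transfer protein, encoded by Mttp, adds lipid to it in the endoplasmic reticulum. Apoa1 and Apoa2 are the main proteins of high density lipoprotein (HDL), Apoa5 and the Apoc proteins regulate the breakdown of plasma triglyceride by lipoprotein lipase, and Apoe is the ligand by which particles are taken up. Xbp1 encodes a transcription factor of the unfolded protein response, which enlarges the secretory capacity of the endoplasmic reticulum. Comparing genotypes on each diet asks whether loss of Xbp1 from hepatocytes was accompanied by a different level of these transcripts.

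Total counts were 19191032 to 23888401 per library. Xbp1 itself was at 194 to 221 CPM (the count scaled to a common library size by TMM) in chow-fed and 242 to 301 in HFS-fed Xbp1 fl/fl libraries, and at 95.7 to 128 and 97.3 to 135 in Xbp1 LKO libraries. The Xbp1 count covers the whole gene, including exons that remain after the deletion. All 10 markers of hepatocytes were detected in every group, but their summed level was 44407 to 85651 CPM in Xbp1 LKO and 117363 to 162506 in Xbp1 fl/fl libraries, without overlap. Albumin (Alb) is among these 10 and makes up a large part of the sum, so the sum does not show that each marker was lower. Hnf4a, also among the 10, overlapped between genotypes on chow (807 to 905 CPM in Xbp1 fl/fl and 808 to 821 in Xbp1 LKO). Hnf4a is a small part of the sum, so it does not show that the other markers were unchanged. The sum of the markers without Alb is not given here. Markers of other liver cells were low, at 23.6 to 113 CPM summed over 14 macrophage genes, 29.1 to 158 over 11 endothelial genes, 11.9 to 67.6 over 10 stellate cell genes and 3.38 to 16.1 over 6 cholangiocyte genes, but they were not even across groups. In Xbp1 LKO all 4 sums were higher on the HFS diet than on chow without overlap (macrophage 63.4 to 113 against 27.0 to 40.0, endothelial 77.4 to 120 against 29.1 to 37.4, stellate 32.5 to 67.6 against 11.9 to 14.6, cholangiocyte 10.6 to 16.1 against 4.81 to 5.55 CPM). On chow the endothelial, stellate and cholangiocyte sums were lower in Xbp1 LKO than in Xbp1 fl/fl without overlap (Xbp1 fl/fl 48.95 to 117, 16.8 to 55.5 and 8.03 to 12.2 CPM), and on the HFS diet the macrophage sum was higher in Xbp1 LKO (Xbp1 fl/fl 44.5 to 63.2 CPM). The part of these shifts in the differences given here was not tested. The share of counts that fell on albumin (Alb) was 8.06 to 10.9% in Xbp1 fl/fl on chow, 5.88 to 7.42% in HFS-fed Xbp1 fl/fl, 3.33 to 5.40% in HFS-fed Xbp1 LKO, and 3.72% and 1.67% in libraries 1 and 2 of chow-fed Xbp1 LKO. Library 2 of the chow-fed Xbp1 LKO group stood apart in this respect, and the chow results of most members are therefore also given without it. The group then holds 1 library, and with 2 it cannot be said which one is typical.

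Several members lie in gene clusters. On mouse chromosome 9 (GRCm38, mm10), Apoa1, Apoc3, Apoa4 and Apoa5 occupy 43340 bases from 46228580 to 46271919, with 2466 bases between Apoa1 and Apoc3, 5059 between Apoc3 and Apoa4 and 25173 between Apoa4 and Apoa5. Apoc3 is on the minus strand and the others on the plus strand. On chromosome 7, Apoc2, Apoc4, Apoc1 and Apoe share the minus strand of the 27610 bases from 19671579 to 19699188. Apoa2 lies on chromosome 1 (171225054 to 171226379), Apob on chromosome 12 (7977648 to 8016835) and Mttp on chromosome 3 (138089854 to 138144968).

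The stretches just upstream of 3 of the 4 chromosome 9 genes are shown because these neighbours gave the clearest genotype and diet differences among the members. They are the RefSeq promoter sequences on GRCm38.p6, plus strand, limited to bases before the annotated start. They cover chr9:46228380-46228579 for Apoa1, chr9:46240594-46240695 for Apoa4 and chr9:46268358-46268607 for Apoa5. Capitals mark matches to motifs searched on both strands.
Apoa1: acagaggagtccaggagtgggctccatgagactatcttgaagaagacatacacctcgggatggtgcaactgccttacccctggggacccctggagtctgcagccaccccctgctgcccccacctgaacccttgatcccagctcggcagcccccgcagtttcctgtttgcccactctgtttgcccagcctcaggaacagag
Apoa4: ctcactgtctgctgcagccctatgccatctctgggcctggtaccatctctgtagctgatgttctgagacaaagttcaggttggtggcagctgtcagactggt
Apoa5: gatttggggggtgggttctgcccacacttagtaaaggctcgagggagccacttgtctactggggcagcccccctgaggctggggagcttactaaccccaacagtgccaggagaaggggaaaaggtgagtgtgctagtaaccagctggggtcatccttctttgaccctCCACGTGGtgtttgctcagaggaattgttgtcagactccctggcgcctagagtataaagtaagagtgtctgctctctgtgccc
The motifs searched were TGACGTGG (the unfolded protein response element), CCACG (part of the endoplasmic reticulum stress element), ACGTG, TGACGTCA (the cAMP response element), CAAAGTCCA (an HNF4-type site) and TTAATNATT (an HNF1-type site). The Apoa5 stretch held the palindrome CCACGTGG from base -83 to base -76, counted with -1 as the last base before the RefSeq start, and this run contains CCACG and ACGTG on both strands. These parts of the run are common, since CCACG was present in 32.8% and ACGTG in 19.6% of 32851 promoter windows. The share of windows with the whole run CCACGTGG was not counted. CCACG was also found in the windows of Apoc2 and Mttp, among 8 members with a window. TGACGTGG, TGACGTCA, CAAAGTCCA and TTAATNATT, present in 0.676%, 1.79%, 0.475% and 1.47% of all windows, had no match in the windows of these 8 members. A match of letters is a description of the sequence and not a bound site.

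Together the 10 genes took 5.05% ± 0.0619 (SD, n = 3) of all counts in chow-fed Xbp1 fl/fl hepatocytes, 4.98% ± 0.571 (n = 2) in chow-fed Xbp1 LKO, 5.93% ± 0.721 (n = 3) in HFS-fed Xbp1 fl/fl and 5.13% ± 0.310 (n = 3) in HFS-fed Xbp1 LKO. Levels between genes can be compared only per length. Per kilobase of exon, Apoa2 was highest in chow-fed Xbp1 fl/fl hepatocytes at 15264 ± 818 CPM, followed by Apoe at 9751 ± 1234, Apoa1 at 9184 ± 1614, Apoc1 at 6251 ± 314 and Apoc3 at 1880 ± 225 (mean ± SD, n = 3). Apoa5 at 572 ± 75.2, Apob at 485 ± 98.0, Mttp at 73.8 ± 10.8 and Apoa4 at 35.4 ± 21.7 followed. The ranges of Apoe and Apoa1 overlapped, as did those of Apoa5 and Apob, so the order within these pairs is not resolved. The order of Apoa2 and Apoe depends on the length used. Per kilobase of the longest transcript, Apoa2 at 14998 to 16694 CPM and Apoe at 13154 to 16844 overlapped in Xbp1 fl/fl on chow, while the mean of Apoe was the higher one in the other 3 groups (14975 against 11787 CPM in chow-fed Xbp1 LKO, 20001 against 15677 in HFS-fed Xbp1 fl/fl and 15900 against 12433 in HFS-fed Xbp1 LKO). Among all genes, by exon length, Apoa2 ranked 1 or 2 per kilobase and Apoe 3 in each of the 4 groups. Apoa1 ranked 4 and 5 in Xbp1 fl/fl on chow and HFS diet, and 10 and 13 in Xbp1 LKO.

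Reads in exon sequence shared by overlapping genes appear to be absent from these tables. Of 743 genes whose exon bases all lie inside exons of another gene of the same strand, 737 had no count in any library, and of 453 genes lying wholly inside exons of the opposite strand, 448 had none, against 51.9% of all genes. Among the members this concerns Apoc2 above all, since only 167 of its 813 exon bases are not shared with the readthrough gene Gm44805. Apoc2, the cofactor of lipoprotein lipase, had 5 to 42 counts per library and Gm44805 had 0 in all 11, so the level of Apoc2 was not measured and no direction is read from it. Apoa4 has 549 of 1815, Apoa5 1998 of 2522 and Mttp 5617 of 6206 exon bases outside other genes. Per kilobase of such bases Apoa4 was at 117 ± 71.7 CPM and Mttp at 81.6 ± 11.9 in chow-fed Xbp1 fl/fl hepatocytes, with overlapping ranges, so their order depends on the length used. Comparisons of 1 gene between groups do not depend on its length.

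**Figure D1:**
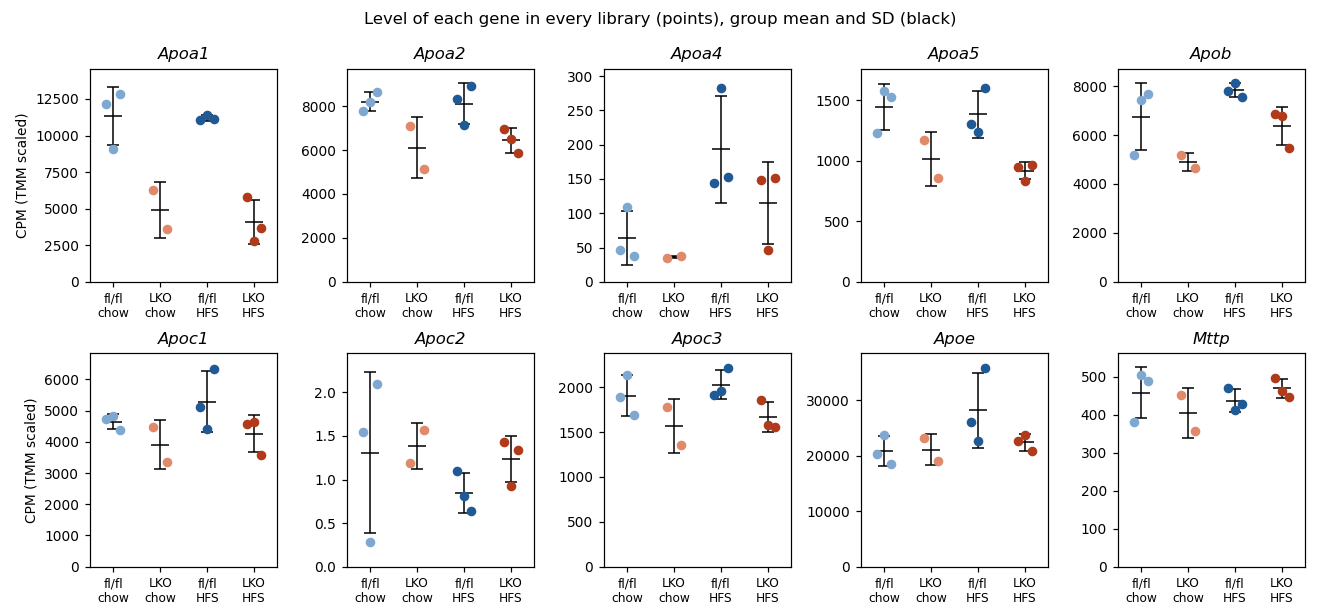
Level of each of the 10 genes in CPM (y axis, linear from 0, scaled by TMM) in every library of the 4 groups (points), with the group mean and SD in black. Apoa1 is between 9079 and 12818 CPM in the 6 Xbp1 fl/fl libraries and between 2803 and 6281 in the 5 Xbp1 LKO libraries, and Apoa4 is higher on the HFS diet within each genotype.

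Apoa1, the main protein of HDL, was the member that differed most between genotypes. On chow its level was 12157, 9079 and 12818 CPM in Xbp1 fl/fl and 6281 and 3583 CPM in Xbp1 LKO hepatocytes. HFS-fed Xbp1 fl/fl mice gave 11062, 11437 and 11111 CPM and HFS-fed Xbp1 LKO mice 5765, 2803 and 3696.5. The genotypes did not overlap on either diet, with all Xbp1 LKO values lower. Apoa1 was 2.74-fold lower in HFS-fed Xbp1 LKO (log2 fold change -1.45, SE 0.28, adjusted p = 0.0161 by edgeR's quasi-likelihood test over 13303 genes). On chow it was 2.30-fold lower with an adjusted p just above the threshold of 0.05 (log2 fold change -1.20, SE 0.32, adjusted p = 0.0572). Averaged over both diets in the same fit, the log2 fold change was -1.33 (SE 0.21, adjusted p = 0.00225). Without chow-fed Xbp1 LKO library 2, which left 1 library in that group, the values were -0.86 on chow and -1.16 over both diets. Over all single libraries left out, the value on chow ran from -1.66 to -0.86. The HFS call was lost when any of 4 HFS libraries was left out (Xbp1 fl/fl 1 or 3, Xbp1 LKO 2 or 3), with adjusted p of 0.0525, 0.0525, 0.0755 and 0.0731 and log2 fold changes of -1.46, -1.46, -1.24 and -1.39. The summed hepatocyte markers, of which Alb is a large part, were lower in the same Xbp1 LKO libraries (above). The summed markers of endothelial and stellate cells were lower in the chow-fed ones. The part of these markers in the Apoa1 difference was not tested. In bulk samples fewer cells of a type and less RNA per cell cannot be told apart.

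Apoa2, the other main HDL protein, showed a smaller difference of the same sign. It was at 7769, 8174 and 8647 CPM in chow-fed Xbp1 fl/fl and 7087 and 5124 in chow-fed Xbp1 LKO hepatocytes. HFS-fed libraries held 8310, 7128 and 8924 CPM of it in Xbp1 fl/fl and 6979, 6492 and 5849 in Xbp1 LKO. The groups did not overlap on either diet, but the log2 fold changes of -0.42 (SE 0.19, adjusted p = 0.247) and -0.33 (SE 0.17, adjusted p = 0.342) did not pass the test, and neither did -0.38 over both diets (SE 0.13, adjusted p = 0.0776). Without chow-fed Xbp1 LKO library 2 the value on chow was -0.21 (adjusted p = 0.817).

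Over the whole set, 0 of the 10 members passed the edgeR test between genotypes on chow, where 4.75% of all 13303 genes passed, and 4 of 10 had an unadjusted p under 0.05 (Apoa1, Apoa2, Apoa5 and Apob), against 19.3% of all genes. No member passed on chow without Xbp1 LKO library 2 either. DESeq2 called 1 member on chow, Apoa1 (log2 fold change -1.20, adjusted p = 0.00121). On the HFS diet 1 of 10 passed, Apoa1, where 4.08% of all genes passed, and 2 of 10 had an unadjusted p under 0.05 (Apoa1 and Apoa5), against 17.5%. Levels of 4 members were lower in every chow-fed Xbp1 LKO library than in every chow-fed Xbp1 fl/fl library (Apoa1, Apoa2, Apoa5 and Apob), against 15.9% of all genes. On the HFS diet 5 members were lower without overlap (the same 4 and Apoc3), against 12.5% of all genes. The median log2 fold change of the 9 members other than Apoc2 was -0.42 on chow and -0.33 on the HFS diet, and that of all genes tested was 0.00 and 0.01. Over both diets 2 members passed, Apoa1 and Apoa5, where 11.9% of all genes passed, and 5 had an unadjusted p under 0.05, against 25.6%. The genotype comparisons on chow and on the HFS diet share no library, but in the edgeR fit they share 1 estimate of the spread. Scaling by library totals instead of TMM raised the median log2 fold change of all genes by 0.33 on chow and 0.27 on the HFS diet, and the negative log2 fold changes of Apoc1, Apoc3 and Mttp on chow became positive. With that scaling the groups did not overlap with lower Xbp1 LKO values for 1 member on chow (Apoa1) and 2 on the HFS diet (Apoa1 and Apoa5), and with higher values for 1 on chow (Apoe) and 1 on the HFS diet (Mttp), Apoc2 left out. All genotype differences here are therefore relative to the typical gene of the library.

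**Figure D2:**
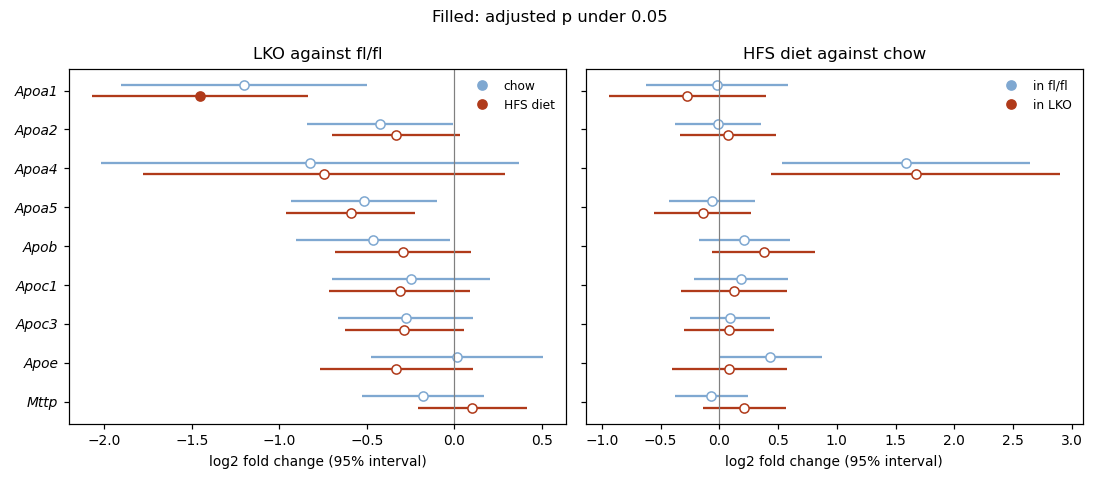
Log2 fold change of 9 members (Apoc2 left out for its few counts) with its 95% interval, between genotypes on each diet (left) and between diets in each genotype (right), from edgeR. The filled point, Apoa1 on the HFS diet at -1.45, is the comparison that passed the threshold.

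Among the regulators of plasma triglyceride, Apoa5, which promotes the action of lipoprotein lipase, was lower in Xbp1 LKO. It was at 1227, 1578 and 1526 CPM in Xbp1 fl/fl and 1168 and 852 in Xbp1 LKO on chow. In HFS-fed mice it was at 1301, 1239 and 1603 CPM in Xbp1 fl/fl and 949, 834 and 965 in Xbp1 LKO. The groups did not overlap on either diet. The log2 fold changes were -0.51 on chow (SE 0.19, adjusted p = 0.158) and -0.59 on the HFS diet (SE 0.17, adjusted p = 0.0772), neither past the threshold (-0.31 on chow without Xbp1 LKO library 2, adjusted p = 0.715), and -0.55 over both diets, which passed (SE 0.13, adjusted p = 0.0159). The call over both diets was lost without chow-fed Xbp1 LKO library 2 (log2 fold change -0.45, adjusted p = 0.0777) and with library totals (-0.26, adjusted p = 0.0715). DESeq2 called Apoa5 on the HFS diet (-0.60, adjusted p = 0.00747). Apoa5 is the member whose upstream stretch, shown above, holds CCACGTGG, and whether this run bears on its level was not tested.

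Apoc3, which opposes lipoprotein lipase and the uptake of particles, is the nearest neighbour of Apoa1. It was at 1890, 2141 and 1686 CPM in Xbp1 fl/fl and 1784 and 1360 in Xbp1 LKO on chow, which overlapped. With HFS feeding it was at 1915, 1958 and 2216 CPM in Xbp1 fl/fl and 1859, 1581 and 1556 in Xbp1 LKO. The log2 fold changes were -0.28 (SE 0.18, adjusted p = 0.429) on chow and -0.29 (SE 0.16, adjusted p = 0.395) on the HFS diet. Apoc1, a small exchangeable apolipoprotein, ranged from 4387 to 4832 CPM in chow-fed Xbp1 fl/fl and from 3360 to 4469 in chow-fed Xbp1 LKO libraries. Its HFS ranges were 4400 to 6347 and 3575 to 4648 CPM, and they overlapped as those on chow did. Its log2 fold changes were -0.25 (95% interval -0.70 to 0.20) on chow and -0.31 (-0.71 to 0.09) on the HFS diet. The values on chow were -0.097 for Apoc3 and -0.060 for Apoc1 without Xbp1 LKO library 2. Neither gene passed the test on either diet.

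Apob and Mttp are the core of VLDL assembly. Apob was at 5188, 7416 and 7669 CPM in chow-fed Xbp1 fl/fl and 5170.5 and 4636 in chow-fed Xbp1 LKO hepatocytes, so the groups were separated by a narrow gap. In HFS-fed mice it was at 7806, 8124 and 7557 CPM in Xbp1 fl/fl and 6878, 6783 and 5480 in Xbp1 LKO. The log2 fold changes of -0.46 (SE 0.20, adjusted p = 0.233) and -0.30 (SE 0.18, adjusted p = 0.446) did not pass, and without chow-fed Xbp1 LKO library 2 the first was -0.39 (adjusted p = 0.678). Mttp was at 382, 504 and 489 CPM in chow-fed Xbp1 fl/fl and 452 and 357 in chow-fed Xbp1 LKO hepatocytes. With HFS feeding it was at 470, 413 and 429 CPM in Xbp1 fl/fl and 497, 463 and 448 in Xbp1 LKO. The Mttp groups overlapped on both diets, and the 95% intervals of its log2 fold change were -0.53 to 0.17 on chow and -0.21 to 0.41 on the HFS diet. Its log2 fold change on chow was -0.18, and -0.023 without chow-fed Xbp1 LKO library 2. A difference as large as that of Apoa1 on either diet lies outside these Mttp intervals with the TMM scaling.

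Apoe, the ligand of the low density lipoprotein receptor family, had the highest CPM of the 10 genes. It was at 20306, 23716 and 18521 CPM in chow-fed Xbp1 fl/fl and 23103 and 19067 in chow-fed Xbp1 LKO hepatocytes. In HFS-fed mice it was at 26146, 22633 and 35705 CPM in Xbp1 fl/fl and 22621.5, 23773 and 20765 in Xbp1 LKO. The log2 fold change was 0.02 (95% interval -0.47 to 0.51) on chow, and it turned negative when Xbp1 fl/fl library 1 or 3 or Xbp1 LKO library 1 of the chow groups was left out. In the HFS groups it was -0.33 (-0.77 to 0.11), with Xbp1 fl/fl library 3 far above the others of its group.

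The interaction of genotype and diet, that is whether the genotype difference depended on the diet, passed the test for 0 of 10 members, where 0% of all genes passed by edgeR, 816 genes had an unadjusted p under 0.05 and DESeq2 called 31 genes, none of them a member. For Apoa1 the interaction was -0.25 (95% interval -1.16 to 0.65 on the log2 scale). No member had an unadjusted p under 0.05, against 6.13% of all genes.

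Because a ratio of counts within a library does not depend on how libraries are scaled, Apoa1 was also set against each of 8 other members, leaving out Apoc2. This comparison was chosen after the values were seen, and the 8 ratios share the count of Apoa1. Relative to its neighbour Apoc3, the log2 ratio of Apoa1 was 2.08 to 2.93 in chow-fed Xbp1 fl/fl, 1.40 to 1.82 in chow-fed Xbp1 LKO, 2.33 to 2.55 in HFS-fed Xbp1 fl/fl and 0.83 to 1.63 in HFS-fed Xbp1 LKO libraries. The ratio was lower by 1.10 on the log2 scale in Xbp1 LKO over both diets (exact permutation of genotype within diet, 200 arrangements, two-sided p = 0.01, adjusted p = 0.0133 over 8 ratios). Relative to Apoe the difference was -1.24, relative to Mttp -1.34, to Apoc1 -1.10, to Apob -1.01, to Apoa2 -0.99 and to Apoa5 -0.83, with exact permutation p of 0.005 to 0.015 and adjusted p of 0.0133 to 0.0171. The smallest p that 200 arrangements can give is 0.005. The ratio to Apoa4 was lower by 0.62 and did not pass (exact permutation p = 0.215). For the 7 ratios other than that to Apoa4 the groups did not overlap on either diet, and within 1 diet the exact permutation test cannot go below 0.1. Without chow-fed Xbp1 LKO library 2 the differences for these 7 ratios ran from -1.22 to -0.74. Apoa1 counts were thus lower relative to Apoc3 and Apoa5, which lie in the same cluster, as well as to members elsewhere.

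**Figure D3:**
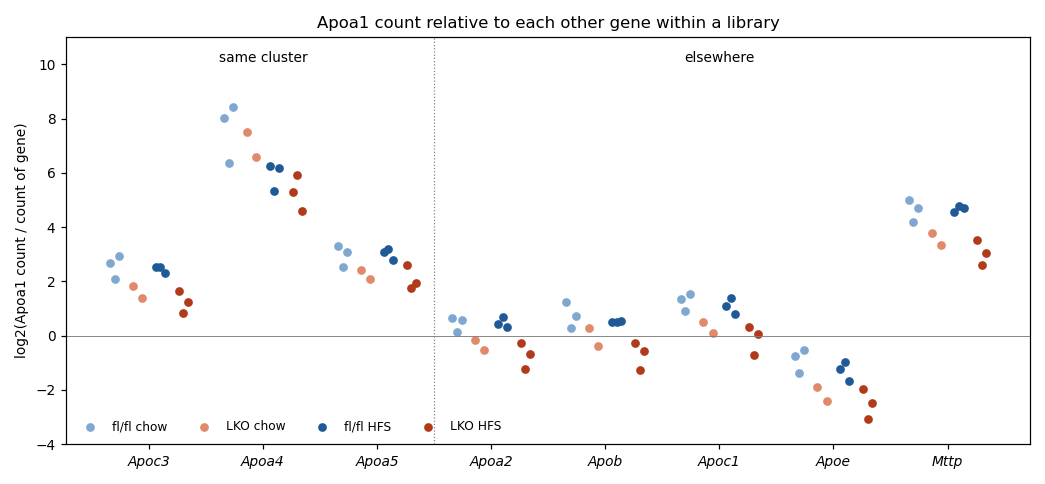
Log2 ratio of the Apoa1 count to the count of each other gene within a library (y axis), coloured by group; genes left of the dotted line lie in the chromosome 9 cluster with Apoa1. For each gene except Apoa4 the Xbp1 LKO libraries lie below the Xbp1 fl/fl libraries of the same diet, as for Apoc3 on the HFS diet (0.83 to 1.63 against 2.33 to 2.55).

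The share of each gene in the summed counts of the 10 genes is given as a description. Apoa1 made up 20.5% ± 4.06 (SD, n = 3) of the counts of the 10 genes in chow-fed Xbp1 fl/fl hepatocytes and 11.01% ± 2.36 (n = 2) in chow-fed Xbp1 LKO. With HFS feeding its share was 17.5% ± 2.43 (n = 3) in Xbp1 fl/fl and 8.69% ± 2.78 (n = 3) in Xbp1 LKO. Apoe made up 37.4% ± 4.02 and 48.2% ± 2.16 on chow and 43.2% ± 4.58 and 48.0% ± 2.67 on the HFS diet, in Xbp1 fl/fl and Xbp1 LKO respectively. The share of Apoe did not overlap between genotypes on chow and overlapped on the HFS diet. Shares of one total are not independent of each other. Apoa2 stayed between 12.1 and 15.5% in all 11 libraries.

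**Figure D4:**
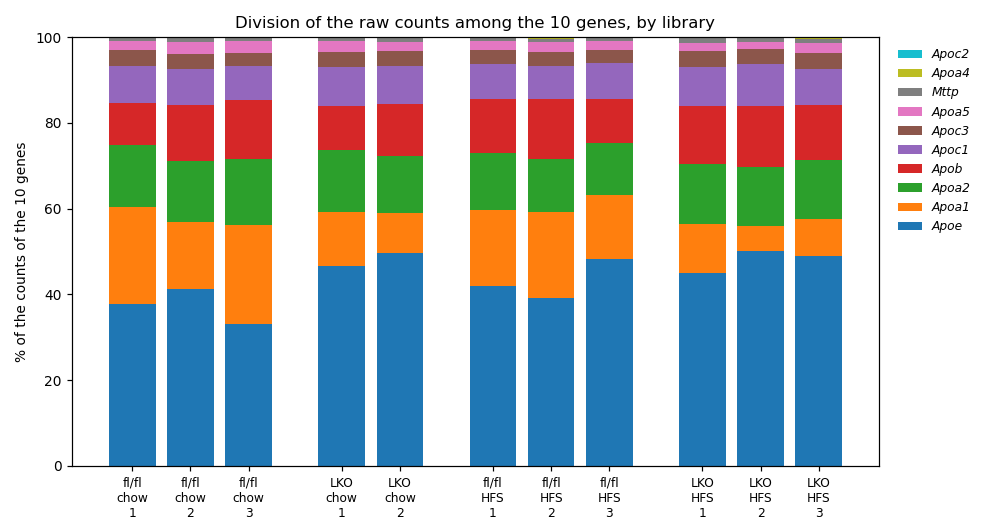
Share of each gene in the summed raw counts of the 10 genes (y axis, percent), 1 bar per library in the 4 groups. Apoe and Apoa1 are the bottom segments; the Apoa1 segment is 15.01 to 23.0% in Xbp1 fl/fl and 5.91 to 12.7% in Xbp1 LKO libraries.

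The diet comparisons ask whether HFS feeding changed the members within a genotype, and they share libraries with the genotype comparisons. HFS libraries pool 2 mice and chow libraries do not, so diet and pooling cannot be told apart. Apoa4, an apolipoprotein of HDL and of intestinal particles, was the member with the largest log2 fold changes with diet. It was at 46.2, 109 and 37.0 CPM in chow-fed and 144, 283 and 152 in HFS-fed Xbp1 fl/fl hepatocytes. In Xbp1 LKO it was at 35.0 and 37.4 CPM on chow and 148, 46.4 and 151 on the HFS diet. The HFS libraries lay above the chow libraries in both genotypes, although Xbp1 LKO library 2 on the HFS diet exceeded the chow libraries by little. The log2 fold changes were 1.59 in Xbp1 fl/fl (SE 0.48, adjusted p = 0.305) and 1.67 in Xbp1 LKO (SE 0.56, adjusted p = 0.277), and over both genotypes 1.63 (SE 0.37, adjusted p = 0.0656), none past the edgeR threshold. DESeq2 called the difference over both genotypes (1.63, adjusted p = 0.00736), and so did edgeR without chow-fed Xbp1 fl/fl library 2 (1.94, adjusted p = 0.0380) or without HFS-fed Xbp1 LKO library 2 (1.82, adjusted p = 0.0367). Between genotypes the Apoa4 libraries overlapped on both diets (log2 fold changes -0.83 and -0.75, SE 0.54 and 0.47, adjusted p = 0.451 and 0.477).

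Apoa4 is also made by enterocytes, so their markers were examined. Of 6 enterocyte genes, 5 were in the tables, and the defining markers Alpi and Cdx2 had no count in any library. Vil1 was at 0 to 0.268 CPM and Lct at 0 to 0.112. Fabp2, an intestinal fatty acid binding protein, was at 42.5 to 94.3 CPM in chow-fed and 137 to 211 in HFS-fed Xbp1 fl/fl libraries, and at 27.7 to 35.2 and 75.7 to 108 in Xbp1 LKO, so it was higher on the HFS diet in the same groups as Apoa4. The markers of the 4 other liver cell types were also higher on the HFS diet in Xbp1 LKO (above), where Apoa4 and Apob did not overlap between diets, and their sums overlapped between diets in Xbp1 fl/fl.

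No member passed the edgeR test of diet, so 0 of 10 passed in Xbp1 fl/fl and 0 of 10 in Xbp1 LKO, where 0.428% and 0.0601% of all genes passed. Levels were higher on the HFS diet without overlap for 1 member in Xbp1 fl/fl (Apoa4, against 6.33% of all genes) and for 2 in Xbp1 LKO (Apoa4 and Apob, against 16.7%). The unadjusted p was under 0.05 for 1 member in each genotype, against 8.95% of all genes in Xbp1 fl/fl and 12.7% in Xbp1 LKO, and DESeq2 called no member in either. Over both genotypes 0 of 10 passed, where 1.1% of all genes passed, and 2 members had an unadjusted p under 0.05 (Apoa4 and Apob), against 14.8% of all genes. Apob had log2 fold changes with HFS feeding of 0.21 in Xbp1 fl/fl (SE 0.18, adjusted p = 0.824) and 0.38 in Xbp1 LKO (SE 0.20, adjusted p = 0.457). Apoe had 0.43 (SE 0.20, adjusted p = 0.568) and 0.09 (SE 0.22, adjusted p = 0.905). Apoa1 had -0.02 (95% interval -0.62 to 0.59) and -0.27 (-0.94 to 0.40).

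As a description, the genes whose log2 CPM most resembled each member's over the 11 libraries were listed, among 7496 genes with a mean of at least 10 CPM. The libraries fall into 4 groups, so these correlations contain the group differences. For Apoa1 they were Serpina1d (Pearson r 0.96), Kcnn2 (0.96) and St3gal5 (0.95), and Serpina1d belongs to a family of near-identical genes among which reads can be misassigned. For Apoa5 they were Ces1b (0.95), Dnajc25 (0.95) and Ilvbl (0.95), for Apoa2 Fech (0.98), Marc1 (0.95) and Mdh1 (0.95), and for Apob Cyp2a12 (0.95), Wwp1 (0.95) and Serping1 (0.93). For Apoa4 the values were lower, with Pknox1 (0.91), Cnot8 (0.87) and Slc12a4 (0.85). For Apoc3 they were Tcn2 (0.95), Gusb (0.95) and Card6 (0.94), for Apoc1 Klf13 (0.91), Cisd1 (0.91) and Cyp2d22 (0.90), for Apoe Pccb (0.94), Peak1 (0.92) and Stard3 (0.92), and for Mttp Nqo2 (0.93), Abcd3 (0.91) and Enpep (0.90). Among members, the highest correlations were between Apoa2 and Apoa5 (0.88) and between Apoa1 and Apoa5 (0.87), and with the group means removed these were 0.73 and 0.40.

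Other genes of lipoprotein assembly were examined by list. Of 20 genes for assembly and secretion, 6 were called lower in Xbp1 LKO on chow and 3 on the HFS diet, and none was called higher. The share of all genes called lower was 3.02% on chow and 2.16% on the HFS diet. The median log2 fold change of the list was -0.40 on chow and -0.31 on the HFS diet. This list and those below were drawn up with earlier results of these data known. A count above the share of all genes is therefore not independent evidence. The study had already reported Dgat2 as lower in Xbp1 LKO hepatocytes on both diets. P4hb, protein disulfide isomerase and the partner subunit of the Mttp protein, was at 1962 to 2217 CPM in chow-fed Xbp1 fl/fl and 671 to 703 in chow-fed Xbp1 LKO libraries, a log2 fold change of -1.59 (SE 0.24, adjusted p = 0.00544). P4hb also fell in HFS-fed Xbp1 LKO, by 1.17 on the log2 scale (SE 0.21, adjusted p = 0.0109). Dgat2, which makes triglyceride, fell by 1.64 on chow (adjusted p = 0.00725) and by 1.89 on the HFS diet (adjusted p = 0.00254). Pla2g12b, needed for lipidation of Apob particles, fell by 0.71 (adjusted p = 0.0209) and by 0.64 (adjusted p = 0.0215). Ces1d, a triglyceride hydrolase with close paralogs, fell by 3.28 on chow (adjusted p = 0.0175), Tm6sf2, which acts in VLDL lipidation, by 0.93 (adjusted p = 0.0224) and Surf4, an export receptor of the endoplasmic reticulum, by 0.57 (adjusted p = 0.0449). Over both diets 11 of 20 were called, all lower, where 6.64% of all genes were, and 6 of 20 were without chow-fed Xbp1 LKO library 2. Without chow-fed Xbp1 LKO library 2, 0 of 20 were called on chow, where the single Xbp1 LKO library left was assumed to vary like the other groups, and the log2 fold change of P4hb was -1.63 and that of Dgat2 -1.28. The adjusted p of P4hb was then 0.0654 and that of Dgat2 0.0659.

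Of 5 other apolipoproteins tested, 2 were called lower on chow and 1 on the HFS diet, where 3.02% and 2.16% of all genes were. All 5 had a negative log2 fold change on both diets. Apon, apolipoprotein N, fell by 1.54 on chow (SE 0.26, adjusted p = 0.00821) and by 1.39 on the HFS diet (SE 0.22, adjusted p = 0.00651). Apof, a lipid transfer inhibitor, fell by 0.74 on chow (adjusted p = 0.0417), a call that was lost with library totals (-0.41, adjusted p = 0.0879). Apom, which rides on HDL, fell over both diets by 0.63 (adjusted p = 0.0150), a call lost without chow-fed Xbp1 LKO library 2 (-0.57, adjusted p = 0.0789) and with library totals (-0.34, adjusted p = 0.0609). Apoc4, between Apoc2 and Apoc1, had -0.30 on chow (adjusted p = 0.255). Without chow-fed Xbp1 LKO library 2 no gene of this list was called on chow. Apod did not pass the filter on low counts.

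Of 12 genes for remodelling in plasma, 1 was called lower on each diet, where 3.02% of all genes were on chow and 2.16% on the HFS diet. Pltp, the phospholipid transfer protein, fell by 1.59 on chow (adjusted p = 0.0414), and Lipc, hepatic lipase, by 0.82 on the HFS diet (adjusted p = 0.0256). With HFS feeding in Xbp1 fl/fl, 3 of 12 passed, where 0.428% of all genes did. Lpl, lipoprotein lipase, rose by 2.38 (adjusted p = 0.0494) and Abca1, the lipid exporter that loads Apoa1, by 0.92 (adjusted p = 0.0494), while Pltp fell by 2.28 (adjusted p = 0.0225). Levels of Lpl were low, at 1.56 to 4.48 CPM in chow-fed and 12.8 to 22.7 in HFS-fed Xbp1 fl/fl libraries. Those of Pltp were 24.9 to 33.7 and 4.38 to 7.67 CPM. None of these diet calls held throughout. Leaving out single libraries, Lpl kept its call in 1 of 11 cases (adjusted p = 0.0270 to 0.170), Abca1 in 2 (0.0205 to 0.228) and Pltp in 7 (0.00334 to 0.139), and without HFS-fed Xbp1 fl/fl library 2 or 3 or chow-fed Xbp1 fl/fl library 2 or 3 no gene of this list was called. With the replicate number as a block only Pltp was called. In Xbp1 LKO 0 of 12 passed, where 0.0601% of all genes did. Log2 fold changes there were 1.16 for Lpl, 0.79 for Abca1 and -1.09 for Pltp. Over both genotypes 4 of 12 passed by edgeR, where 1.1% of all genes did. They were Abca1 (0.85, adjusted p = 0.0129), Pltp (-1.69, adjusted p = 0.0129), Lpl (1.77, adjusted p = 0.0297) and Abcg1 (1.96, adjusted p = 0.0187). Abcg1 had group means of 0.818 to 3.94 CPM. These 4 calls are not given here with single libraries left out.

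Of 9 receptors and uptake genes tested, 1 was called on chow and 2 on the HFS diet, where 4.75% and 4.08% of all genes were. Vldlr, the VLDL receptor, was higher in chow-fed Xbp1 LKO libraries (3.58 and 5.68 CPM against 0.116 to 0.883, log2 fold change 3.19, SE 0.69, adjusted p = 0.0250). Lrp1, a receptor for Apoe, fell by 1.21 (adjusted p = 0.0140) and Scarb1, the HDL receptor, by 0.80 (adjusted p = 0.0444) on the HFS diet. Lrp8 did not pass the filter on low counts. Of 15 transcriptional regulators of these genes, 0 were called by edgeR on either diet (3 at an unadjusted p under 0.05 on chow and 2 on the HFS diet), DESeq2 called 0 on chow and 1 on the HFS diet, and over both diets Srebf1 and Ppargc1b were lower (log2 fold changes -1.15 and -0.59, adjusted p = 0.0356 and 0.0432), where 11.9% of all genes were called. Both calls were lost without chow-fed Xbp1 LKO library 2 (-0.87 and -0.44, adjusted p = 0.143 and 0.198) and when some other libraries were left out. Hnf4a, which activates many apolipoprotein genes, was at 807 to 905 CPM in chow-fed Xbp1 fl/fl and 808 to 821 in chow-fed Xbp1 LKO libraries.

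Leaving out single libraries sorted the genotype calls of these lists. P4hb, Dgat2 and Apon kept their calls on the HFS diet under each of the 18 alternatives run. Pla2g12b lost its HFS call without Xbp1 fl/fl library 2 or Xbp1 LKO library 1 or 2 of the HFS groups (adjusted p = 0.0513 to 0.0922). Lipc lost it without Xbp1 fl/fl library 1 or 3 or Xbp1 LKO library 2 or 3 (adjusted p = 0.0803 to 0.115). Lrp1 lost it without Xbp1 fl/fl library 3 or Xbp1 LKO library 2 or 3 (adjusted p = 0.0525 to 0.0769). Scarb1 lost it without any HFS library but Xbp1 fl/fl library 1, and without chow-fed Xbp1 fl/fl library 2 (adjusted p = 0.0585 to 0.139). With library totals, Pla2g12b lost its calls on both diets, Surf4 its chow call and Scarb1 its HFS call. The calls named here on chow were all lost without chow-fed Xbp1 LKO library 2 (adjusted p = 0.0654 to 0.303), and those of Apof, Tm6sf2, Surf4, Pla2g12b, Pltp and Vldlr were also lost when some other library was left out.

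**Figure D5:**
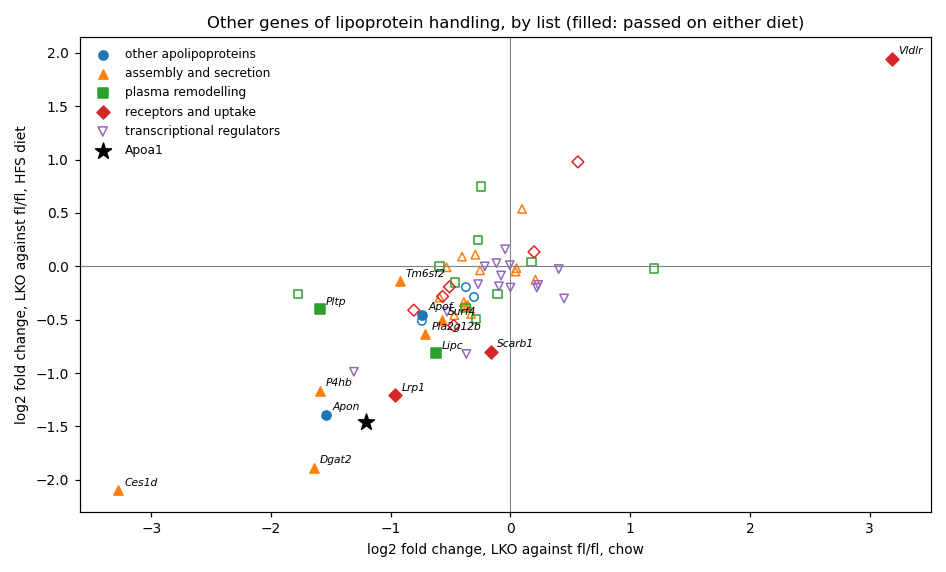
Log2 fold change between genotypes on chow (x axis) and on the HFS diet (y axis) for the genes of the 5 lists, with filled symbols where the gene passed on either diet, and Apoa1 as a star at -1.20 and -1.45. Of the named genes all but Vldlr lie below 0 on both axes.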

How the data were processed

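RNA was extracted from purified hepatocytes and sequenced as single-end reads. The authors deposited 1 table of whole-number gene counts per library, neither normalized nor filtered. The sources disagree on how the counts were made. The submitters' processing notes name cutadapt (version 1.13), STAR, HTSeq (version 0.6.1p1) and DESeq2 with the genome build mm10, and the methods of the study name kallisto and tximport, so the counter is not settled. The annotation version is not given in the sources used here. Of 54232 identifiers, 54079 had a symbol in GENCODE M21 on GRCm38, which gave positions and overlaps.

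Groups came from the sample titles. Counts were filtered with filterByExpr (minimum count 10), scaled by TMM and tested by quasi-likelihood in edgeR 4.0.16 (R 4.3.3), with all 11 libraries in 1 fit of 4 groups and Benjamini-Hochberg adjustment over 13303 genes at a threshold of 0.05. All 10 members passed the filter. The same fit gave effects averaged over both diets or both genotypes, and these were added after the data were seen, as were the ratios of Apoa1 and the lengths free of other genes. Alternatives were DESeq2 1.42.0, other scaling factors, library totals, no filter, only the groups compared, a replicate block and leaving out each library. Named genes were the 10 members, the list genes that passed in a genotype comparison (the 6 with the smallest p where more passed) and the 3 most alike genes for each member. Plasma remodelling genes that passed with diet are named as well. Of the listed genes, 2 are not reported here and are left out of the list counts. The members and lists were chosen with earlier results of these data known. A chi-square comparison of replicate libraries gave 25.4 to 91.5 per degree of freedom, far above counting noise, so intervals from counting alone are left out. Per the methods of the study each HFS library pools 2 mice, and p-values measure the spread between libraries. The edgeR fit shares 1 estimate of that spread for each gene over the 4 groups, so unpooled chow and pooled HFS libraries both enter it.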

Additional observations from a re-analysis of the deposited data

How the results depend on the processing

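Of 534 recomputed log2 fold changes of members, 497 kept their direction and their side of the threshold, 24 newly passed, 6 no longer passed and 7 changed sign. The sign changes were Apoc1 (0.071), Apoc3 (0.044) and Mttp (0.14) between genotypes on chow with library totals, Apoe between genotypes on chow without Xbp1 fl/fl library 1 (-0.0028) or 3 (-0.06) or Xbp1 LKO library 1 (-0.13; -0.13 to 0.15 over all libraries left out), and Apoe with diet in Xbp1 LKO without chow-fed library 2 (-0.037; -0.037 to 0.23 over all libraries left out). The number of members called between genotypes on chow was 1 with library totals, DESeq2 or the replicate block and 2 without the low-count filter, against 0, and 0 to 1 when a library was left out. On the HFS diet it was 3 without the filter and 2 with DESeq2 or with the groups compared alone, against 1, and 0 to 2 when a library was left out. Without the filter 1 member, Apoa4, was called in each diet comparison and over both genotypes. DESeq2 called 1 member with diet over both genotypes and 4 between genotypes over both diets, and library totals gave 1 there. Leaving out a library gave 1 to 3 members between genotypes over both diets and 0 to 1 with diet over both genotypes. The cause of these changes was not tested. Leaving Alb out of the total moved the members' share of counts in chow-fed Xbp1 fl/fl to 5.59%.

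Genes called over the whole table numbered 632 on chow and 543 on the HFS diet, 1115 and 987 with DESeq2, 1507 and 1438 without the filter, 3000 (2685 higher) and 1483 (1288 higher) with library totals, and 69 on chow without chow-fed Xbp1 LKO library 2. With diet, 57 in Xbp1 fl/fl became 175 with DESeq2 and 499 without the filter, and 8 in Xbp1 LKO became 210 and 722. Of 411 recomputed values of named list genes, 293 kept their call, 118 lost it and none changed sign.

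Libraries with the same replicate number did not deviate together, since 4 of 15 pairs had a correlation over 0.1 (mean -0.0086). A fit with the number as a replicate block called 455 genes on chow and 412 on the HFS diet, and with the numbers of the file names 488 and 429. In both block fits Apoa1 passed on chow (-1.23, adjusted p = 0.0445, and -1.36, adjusted p = 0.0354).

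With 2 or 3 libraries in a group, the spread between libraries and not the depth of 19191032 or more counts limits what can be seen. Apoc2 is apart from this. It had at most 42 counts, with only 167 of its 813 exon bases not shared with Gm44805, so its level was not measured.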
